A study of Mus musculus with 26 samples.

Results

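Ribosome biogenesis genes encode the factors that transcribe ribosomal RNA, cut and modify it, and assemble it with ribosomal proteins into the 40S and 60S subunits. The 38 genes described here were taken by name from a table of 36883 gene names, and all 38 were found in it. They comprise 6 nucleolar scaffold and chaperone genes, 4 core genes of the small nucleolar ribonucleoproteins (snoRNPs), 2 RNA polymerase I subunits, 10 genes of 40S maturation, 15 genes of 60S maturation and the helicase gene Ddx21. Ribosome assembly starts in the nucleolus, where RNA polymerase I copies the ribosomal DNA and snoRNPs guide the chemical modification of the transcript. The small subunit processome then shapes the 40S precursor and a separate set of factors the 60S precursor. MYC, the transcription factor, is known to raise the transcription of many of these genes in growing cells, and most liver cells of adult mice divide rarely.

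The RNA came from livers of Eµ-MYC mice, and every group carried this transgene, in which the immunoglobulin heavy chain enhancer drives MYC in B-lineage cells, so that B-cell lymphoma can develop. Mice under chronic jet lag lighting (CJL) comprised 8 females and 4 males, and mice under 12:12 lighting, that is, 12 hours of light and 12 hours of dark, comprised 8 females and 6 males. The jet lag lasted 8 weeks. Each library is numbered as a separate mouse. A group without the transgene was not used here, and the sources used here do not give the age of the mice, their health or the hour of sampling.

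Promoter sequences of the members are shown first, because the 6-base E-box CACGTG is the sequence that MYC with its partner MAX binds and that the circadian factors CLOCK and BMAL1 also bind. RefSeq promoters of the GRCm38.p6 build, from 250 bases before to 50 bases after the gene start, were matched by symbol for 32 of the 38 members. CACGTG, searched on both strands, stood in a promoter of 6 of these 32 members (18.8%). It did so for 10.9% of the 11694 tested genes matched in this way and for 8.09% of all 27025 gene symbols. The 6 windows of 30 bases below show it in capitals, each read in the direction of its gene.
Grwd1, chr7:45830740-45830769, minus strand: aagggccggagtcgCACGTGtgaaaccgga
Mybbp1a, chr11:72441347-72441376, plus strand: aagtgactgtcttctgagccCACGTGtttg
Nop2, chr6:125131811-125131840, plus strand: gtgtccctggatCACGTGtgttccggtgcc
Pes1, chr11:3963965-3963994, plus strand: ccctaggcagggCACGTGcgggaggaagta
Utp20, chr10:88826765-88826794, minus strand: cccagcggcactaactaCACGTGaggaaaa
Wdr43, chr17:71616220-71616249, plus strand: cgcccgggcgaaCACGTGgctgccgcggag
In Nop2 the motif began 60 bases before the gene start. In the other 5 it began 3 to 41 bases into the transcribed sequence, counting the first transcribed base as 1.

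The related hexamer CACGCG, a noncanonical E-box, was searched in the same way, also as its reverse complement CGCGTG. It stood in a promoter of 10 of the 32 members (31.2%), against 17.9% of the matched tested genes and 10.5% of all gene symbols. These 10 members were Bysl, Ddx21, Mybbp1a, Nip7, Noc2l, Nolc1, Nop16, Pes1, Ppan and Riok2, and in Mybbp1a the matches of both strands overlapped. The 250 bases before the RefSeq start of Riok2 are printed because Riok2 was the member that passed the test under jet lag, and those of Nop2 because its E-box lies before the start. GENCODE places the start of Riok2 23 bases before the end of the stretch shown. The capitals mark CGCGTG in Riok2 and CACGTG in Nop2.
Riok2, chr17:17374082-17374331, plus strand: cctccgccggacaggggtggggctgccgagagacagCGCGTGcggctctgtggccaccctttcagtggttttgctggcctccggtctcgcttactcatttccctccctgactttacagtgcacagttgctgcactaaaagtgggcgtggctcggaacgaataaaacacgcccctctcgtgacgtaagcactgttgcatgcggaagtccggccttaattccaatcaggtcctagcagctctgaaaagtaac
Nop2, chr6:125131633-125131882, plus strand: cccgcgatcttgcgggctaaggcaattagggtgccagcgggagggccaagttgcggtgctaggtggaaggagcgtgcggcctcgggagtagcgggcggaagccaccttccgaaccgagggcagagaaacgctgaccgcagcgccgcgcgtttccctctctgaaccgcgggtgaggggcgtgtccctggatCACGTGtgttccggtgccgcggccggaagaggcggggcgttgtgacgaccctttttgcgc
A motif match describes these letters and does not show binding.

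The 26 libraries held 45364557 to 50242019 counts each, and levels are given in CPM, the count scaled to a common library size. A count of 0 would have allowed up to 3 counts, or 0.0661 CPM at most, and every member lay far above this level. The hepatocyte gene Alb, which encodes albumin, took 12.9% to 22.1% of the counts in the 8 libraries with at least 8 CPM of Cd79a, and 10% to 14.4% in the other 18. Cd79a encodes a chain of the B-cell receptor complex and ran from 14.5 to 144 CPM in those 8 libraries, against 1.28 to 2.95 CPM in the others. The 8 libraries, called Cd79a-high below, were 4 under jet lag (females 2, 5 and 6 and male 8) and 4 under 12:12 lighting (females 6 and 7 and males 3 and 5). Because they were separated by a measured value and not by a label, comparisons between them and the other 18 are descriptions without a test.

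Ribosome biogenesis genes were more abundant in the Cd79a-high livers than in the others. Summed over the 38 members, the level had a lowest value of 1108, a median of 1907 and a highest value of 3442 CPM in the 8 Cd79a-high libraries, against 808.6, 894.5 and 1187 CPM in the other 18. Only 1 Cd79a-high library, jet lag female 2, lay within the range of the other libraries. The ratio of the median in Cd79a-high libraries to the median in the others was above 1 for 38 of 38 members (37 with TMM scaling, the exception being Riok2), where 61.6% of all genes were above 1. Its log2 had a median of 0.93 over the members, against 0.12 over the 16892 genes that passed a filter on low counts. All 38 members passed that filter. The median was more than 2-fold higher for 16 of the 38, where 12.1% of all genes were, and more than 2-fold lower for 0, where 2.53% of all genes were. With TMM scaling the all-gene median moved to -0.04, the member median to 0.78 and the count above 2-fold to 9 of 38, where 9.85% of all genes were above 2-fold.

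**Figure D1:**
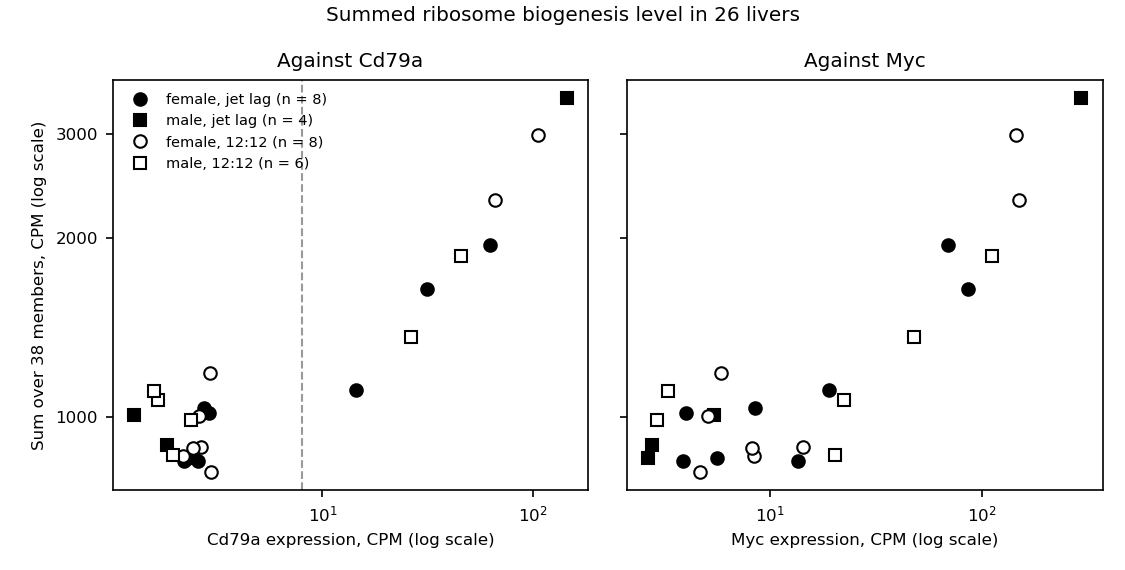
Summed level of the 38 ribosome biogenesis genes (CPM, log scale) in each of 26 livers against the CPM of Cd79a (left) and of Myc (right), both on log axes; filled symbols are jet lag, open symbols 12:12 lighting, circles females and squares males, and the dashed line marks 8 CPM of Cd79a. The 18 libraries left of the line sit between 808.6 and 1187 CPM, and the 8 libraries right of it spread from 1108 to 3442 CPM, with jet lag male 8 on top.

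The nucleolar scaffold and chaperone genes were all more than 2-fold higher by their medians in Cd79a-high libraries (6 of 6, median log2 ratio 1.28). Tcof1, which encodes treacle, the nucleolar partner of RNA polymerase I, had a lowest, median and highest level of 18.2, 44.0 and 99.4 CPM in Cd79a-high libraries, against 7.49, 10.1 and 12.4 CPM in the others. The groups did not overlap, and the ratio of medians, 4.36, was the highest of the 38. Mybbp1a, a nucleolar regulator of ribosomal RNA synthesis, ran from 90.6 through 156 to 271 CPM in Cd79a-high libraries, against 54.9, 73.9 and 88.4 CPM in the others, again without overlap. Ncl, which encodes the RNA-binding protein nucleolin, had 239, 440.0 and 922 CPM in Cd79a-high libraries and 165, 198 and 266 CPM in the others. Its Cd79a-high range overlapped through its lowest library. Per kilobase of exon Ncl was the most abundant member on both sides, with a median of 43.2 CPM per kilobase in Cd79a-high libraries and 19.4 in the others. Npm1, the histone and ribosome chaperone nucleophosmin, was 3.01-fold higher by medians (38.2 CPM in Cd79a-high libraries and 12.7 CPM in the others). Its counts are uncertain because processed copies of Npm1 in the genome can share its reads. Nolc1, a chaperone of snoRNPs, and Gnl3, the nucleolar GTPase nucleostemin, were 2.67-fold and 2.04-fold higher.

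The snoRNP core genes had a median log2 ratio of 1.39 and 3 of 4 were more than 2-fold higher. Nop56, a scaffold protein of box C/D snoRNPs, which guide ribose methylation, had a lowest, median and highest level of 24.6, 53.2 and 99.6 CPM in Cd79a-high libraries, against 12.3, 16.8 and 26.5 CPM in the others. Of the 8 Cd79a-high libraries 1 lay inside the other range. Nop58, its partner, was 2.76-fold higher by medians, and Dkc1, the pseudouridine synthase of box H/ACA snoRNPs, 2.49-fold. Fbl, the methyltransferase fibrillarin, had the lowest level of these 4 genes per kilobase of exon, with a median of 1.80 CPM per kilobase in Cd79a-high libraries and 0.99 in the others, and a ratio of 1.82. The polymerase subunits Polr1a and Polr1b, which form the catalytic core of RNA polymerase I, had ratios of 1.66 and 1.67. In each, 7 of the 8 Cd79a-high libraries lay above every other library.

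Among the 10 genes of 40S maturation the median log2 ratio was 0.86, and 3 were more than 2-fold higher. These were Riok1, a kinase of late 40S maturation (2.14-fold), and Wdr43 and Wdr75, subunits of the small subunit processome (2.06-fold and 2.02-fold). Heatr1, another processome subunit, had 37.3, 58.2 and 90.0 CPM as lowest, median and highest in Cd79a-high libraries, against 23.7, 29.4 and 41.2 CPM in the others. Its 8 Cd79a-high values lay above all others with the exception of 1 library. Rrp12, Rrp9, Utp20, Bysl and Nop14 had ratios of 1.97, 1.68, 1.61, 1.45 and 1.44. Riok2, the cytoplasmic ATPase that acts on the last 40S precursors, had the lowest ratio of the 38, with 23.1, 29.6 and 35.9 CPM in Cd79a-high libraries and 14.03, 27.9 and 35.5 CPM in the others. These ranges overlapped almost entirely, and the log2 ratio of 0.08 became -0.07 with TMM scaling, so that its direction depended on the scaling.

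The 15 genes of 60S maturation had a median log2 ratio of 0.83, and 3 were more than 2-fold higher. Rrp1b, a nucleolar protein that works in 60S assembly, had a lowest, median and highest level of 6.29, 15.8 and 30.4 CPM in Cd79a-high libraries, against 2.98, 4.50 and 6.13 CPM in the others. The groups did not overlap, and its ratio of 3.50 was the highest after that of Tcof1. With TMM scaling 7 of its 8 Cd79a-high values lay above all others. Pes1, of the complex with Bop1 and Wdr12 that processes 60S precursor RNA, had 40.4, 52.6 and 95.6 CPM in Cd79a-high libraries and 26.4, 31.7 and 36.8 CPM in the others, without overlap. Its partners Bop1 (1.70-fold) and Wdr12 (1.86-fold) did overlap, with 5 and 7 of 8 Cd79a-high libraries above all others. Ppan, a processing factor of the 60S precursor, was 2.25-fold higher by medians and Nop2, a ribosomal RNA methyltransferase, 2.03-fold. The lowest ratio of the group was that of Wdr74, 1.33, and the other 8 lay between 1.55 and 1.93. Ddx21, a helicase of ribosomal RNA transcription and processing, had 53.9, 88.0 and 156 CPM in Cd79a-high libraries, against 26.9, 41.2 and 55.1 CPM in the others, with 7 of 8 Cd79a-high libraries above the rest.

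**Figure D2:**
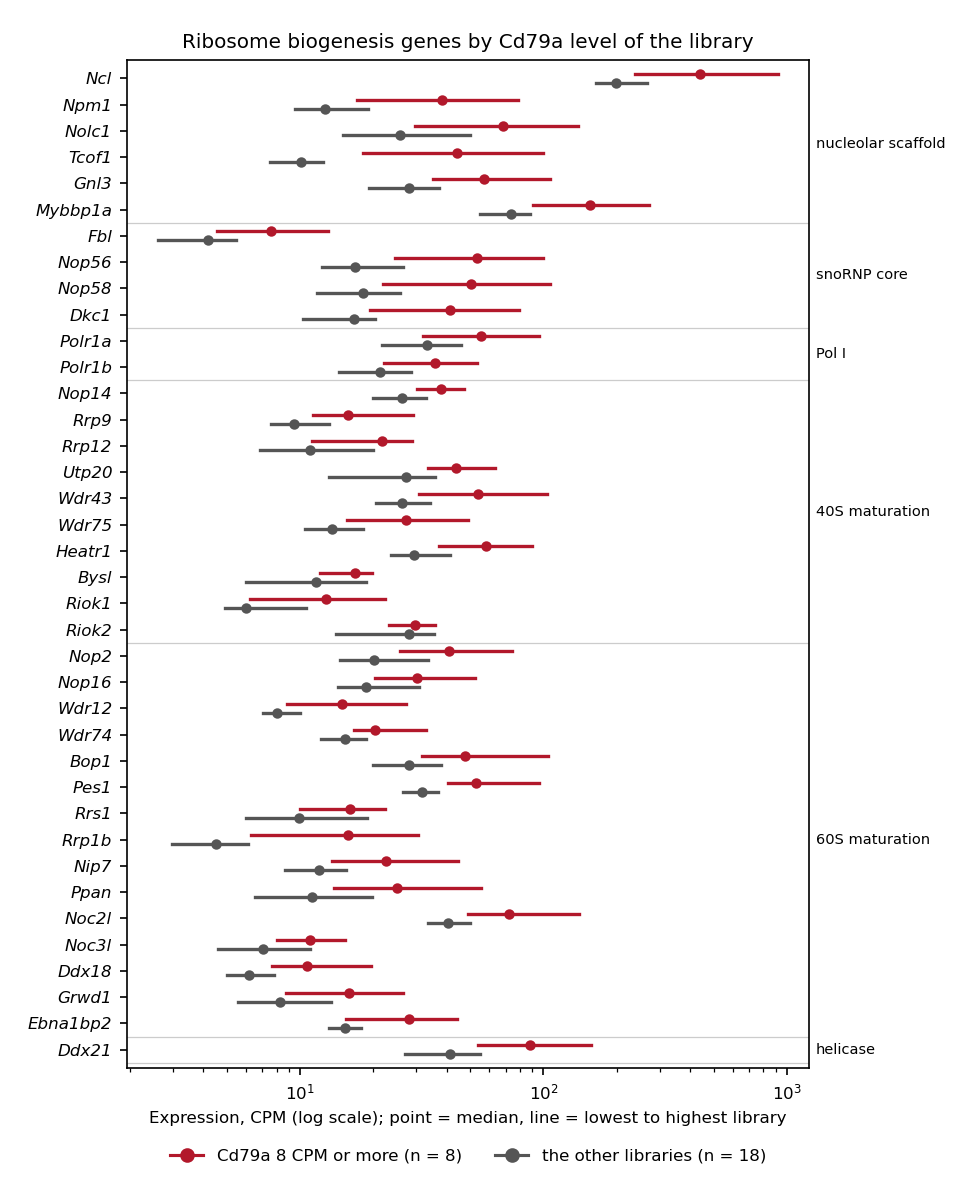
Levels of the 38 members (CPM, log scale) in the 8 Cd79a-high libraries (red) and the other 18 (grey); points are medians and lines run from the lowest to the highest library, with genes grouped by role. The red and grey lines of Tcof1, Mybbp1a, Pes1 and Rrp1b are apart, and those of Riok2 and Bysl overlap nearly throughout.

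Counted by library, the shift was uneven. Tcof1, Mybbp1a, Pes1 and Rrp1b were the 4 of 38 members without overlap between the sides, where 3.94% of all genes lay higher without overlap and 0.0178% lower. With TMM scaling Tcof1 and Pes1 alone stayed without overlap. In 21 members at least 7 of the 8 Cd79a-high libraries exceeded every other library. Jet lag male 8, with 144 CPM of Cd79a, exceeded all 18 other libraries in 37 of 38 members, and 12:12 female 6 in 36. Jet lag female 2, the Cd79a-high library with the least Cd79a (14.5 CPM), did so in 6 members, and without it 20 of 38 members were free of overlap. The shares of all genes were not counted for the 21 members, for the counts by library or for the 20. These counts therefore do not set the members apart from other genes.

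Transcripts of other cell types differed between the same libraries. The summed 15 B-lineage markers ran from 121 through 418 to 1220 CPM in Cd79a-high libraries, against 20.8, 33.4 and 48.2 CPM in the others. Cd79a, by which the libraries were separated, is one of these markers, and the other 14 summed to 106.1, 364.1 and 1076 CPM in Cd79a-high libraries, against 19.12, 31.23 and 45.31 CPM in the others. Of these markers, Igll1 was listed at 0 in 16 of the other 18 libraries and Rag1 in 9. The 16 proliferation genes summed to 99.1, 445 and 1128 CPM in Cd79a-high libraries, against 34.0, 44.1 and 58.4 CPM in the others. Macrophage markers summed to a median of 1230 CPM in Cd79a-high libraries (616 to 2821) and 539 CPM in the others (324 to 698), and neutrophil markers to 43.4 CPM in Cd79a-high libraries (7.31 to 464) and 3.19 CPM in the others (1.28 to 7.66). Erythroid markers summed to 2823 CPM in Cd79a-high libraries (1048 to 11780) and 1560 CPM in the others (811 to 4653). T and NK cell markers, which overlapped, had medians of 8.62 CPM in Cd79a-high libraries (3.25 to 14.4) and 7.58 CPM in the others (3.67 to 9.84). In bulk RNA, more cells of a type and more RNA per cell cannot be told apart, and the part of each cell type in the members' levels was not tested.

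In the rest of the pathway the ratios were mostly above 1 as well. Of 121 other ribosome biogenesis genes that passed the filter, 117 had a ratio above 1 and 13 were more than 2-fold higher, with a median log2 ratio of 0.51. The highest were Gar1, an H/ACA snoRNP protein (2.85-fold), Nle1, a 60S maturation factor (2.68-fold), and Ruvbl2, an ATPase of snoRNP assembly (2.61-fold). Of 43 cytosolic ribosomal protein genes all 43 had a ratio above 1 and 22 were more than 2-fold higher, with a median log2 ratio of 1.00. Their counts are uncertain, since processed copies in the genome can share their reads. The member list was chosen with results of these data in view, and the difference between lists was not tested.

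Among the 8 Cd79a-high libraries alone, most members rose with Cd79a. A slope on log2 CPM of Cd79a was fitted for each gene with edgeR's quasi-likelihood test, and 30 of 38 members were higher and 0 lower at a Benjamini-Hochberg adjusted p below 0.05, where 8.32% of 16946 tested genes were higher and 2.44% lower. The median slope was 0.40 over the members, in log2 units per doubling of Cd79a, against -0.02 over all genes. All 6 scaffold genes, all 4 snoRNP core genes, 1 of 2 polymerase I subunits, 5 of 10 genes of 40S maturation, 13 of 15 genes of 60S maturation and Ddx21 passed. The steepest were Tcof1 with 0.69 (SE 0.098, edgeR adjusted p = 0.00138), Npm1 with 0.68 (SE 0.088, adjusted p = 0.000725) and Nop58 with 0.63 (SE 0.085, adjusted p = 0.000979). The smallest p was that of Nop56, with a slope of 0.54 (SE 0.064, adjusted p = 0.000467).

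Among those that did not pass, Riok2 had a slope of 0.00 (SE 0.09), Bysl 0.09 and Nop14 0.14, and Utp20, Noc3l, Wdr74, Polr1a and Rrp12 lay between 0.16 and 0.30. In Wdr74 and Polr1a the edgeR adjusted p was 0.0539 and 0.0557. The count rested on the libraries at both ends of the Cd79a range. It was 15 without jet lag male 8, 18 without jet lag female 2 and 1 (Tcof1) without both. Whichever of the 8 libraries was left out, 13 members passed, namely Bop1, Dkc1, Gnl3, Ncl, Nolc1, Nop56, Nop58, Npm1, Ppan, Rrp9, Tcof1, Wdr43 and Wdr75. The shares of all genes in these smaller fits are not given here. A loss of calls among the members therefore cannot be told from a loss over the whole table.

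Slopes were spread over the pathway as well. Of the other 121 pathway genes 48 were higher and 0 lower with Cd79a, with a median slope of 0.24, and of 43 ribosomal protein genes 16 were higher, with a median of 0.34. The exosome subunit gene Exosc8 had a slope of 0.52 (SE 0.067, edgeR adjusted p = 0.000708), and Ruvbl2 one of 0.62 (SE 0.068, adjusted p = 0.000303). Proliferation genes rose in 16 of 16 cases with a median slope of 1.04, and of the 13 B-lineage genes tested beside Cd79a itself 10 rose, with a median slope of 0.91. Of 6 hepatocyte genes 0 passed (0 also at an unadjusted p below 0.05), with a median of -0.10. Neutrophil markers had slopes above 0 in 11 of 11 cases, with a median of 1.36, and macrophage markers in 11 of 11, with a median of 0.22, but 0 of each list passed in edgeR (3 and 0 at an unadjusted p below 0.05). Of 10 erythroid markers 1 passed, Ermap, with a slope of 1.92 (SE 0.38, edgeR adjusted p = 0.00946), and the list's median was -0.05. Of 10 T and NK cell markers 0 passed in edgeR (1 unadjusted), with a median of -0.06. The part of each of these cell types, and of proliferating cells, in the members' slopes was not tested.

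**Figure D3:**
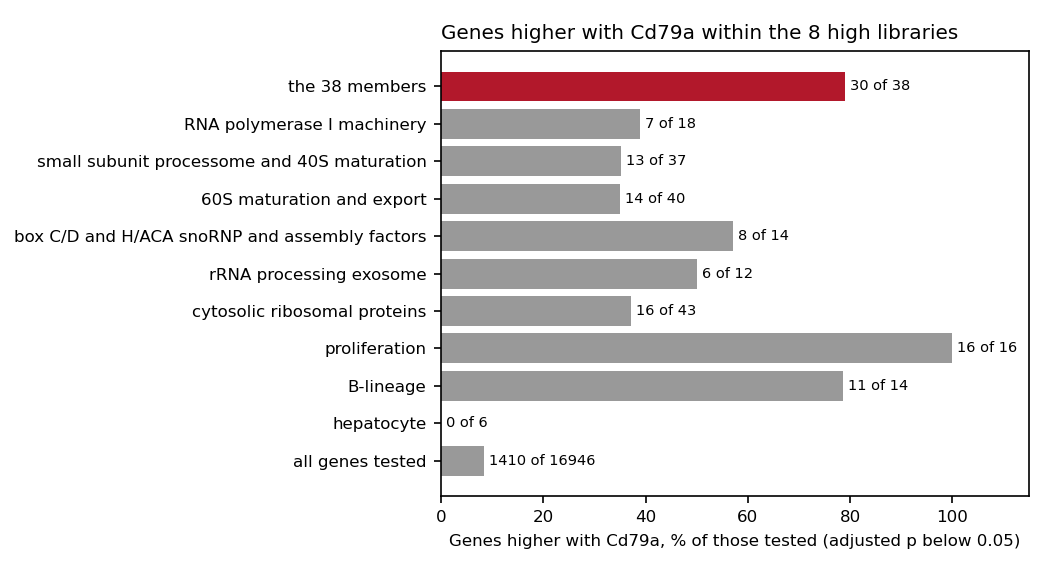
Share of the tested genes of each list that were higher with Cd79a among the 8 Cd79a-high libraries (edgeR adjusted p below 0.05), with counts beside the bars. The members' bar (30 of 38) stands above those of the other ribosome biogenesis lists and of all 16946 tested genes (1410), and below that of proliferation genes (16 of 16). The B-lineage bar (11 of 14) counts Cd79a, the covariate.

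Myc, whose transcript can come from the mouse gene and, as far as the counting allowed, from the transgene, had 19.02, 99.4 and 293 CPM as lowest, median and highest in Cd79a-high libraries, against 2.68, 5.57 and 22.4 CPM in the others. With log2 Myc in place of Cd79a, 21 of 38 members were higher and 0 lower in the Cd79a-high libraries, where 4.86% of all genes were higher and 1.2% lower, with a median slope of 0.32 (all genes, -0.01). Rrp1b had the smallest p, with a slope of 0.58 per doubling of Myc (SE 0.065, edgeR adjusted p = 0.00177), and was the 1 member that passed in each fit that left out a library. Next by p came Dkc1 with 0.48 (SE 0.071), Ppan with 0.50 (SE 0.077) and Nop56 with 0.48 (SE 0.076), at edgeR adjusted p of 0.00486 to 0.00648. Tcof1, with 0.53 (SE 0.149), did not pass (adjusted p = 0.0665). On both covariates 20 members passed, Polr1a passed with Myc and not with Cd79a, and 7 passed on neither. Cd79a itself rose with Myc in these 8 libraries (slope 0.80, SE 0.12, edgeR adjusted p = 0.0052). The 2 slopes are therefore not separate evidence, and the share of all genes that passed on both was not counted. Without jet lag female 2, and also without jet lag male 8, the Myc count was 1. The share of all genes in these smaller fits is not given here.

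In the 18 libraries below 8 CPM of Cd79a no member passed the test on either gene. On Cd79a, 0 of 38 members passed in edgeR (0 at an unadjusted p below 0.05), where 0% of 16431 tested genes were higher and 0.00609% lower, and the lowest adjusted p of a member was 0.673. On Myc, 0 of 38 passed (1 at an unadjusted p below 0.05), where 0.0122% of genes were higher and 0% lower, and the lowest adjusted p was 0.998. Member slopes ran from -0.58 to 0.47 on Cd79a, with SEs of 0.16 to 0.45, and from -0.12 to 0.08 on Myc, with SEs of 0.039 to 0.12. The narrow range of Cd79a here, 1.28 to 2.95 CPM, limited the precision of its slope. Myc spanned a wider range, and 12:12 male 2, with the highest Myc of these libraries (22.4 CPM), had a summed member level of 1066 CPM, inside the range of the others.

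Jet lag was compared with 12:12 lighting among these 18 libraries, 8 under jet lag and 10 under 12:12, with sex in the model. It addressed whether ribosome biogenesis genes differ with lighting where B-lineage transcripts are low. Riok2 fell, and the other 37 members did not pass. In edgeR's quasi-likelihood test 0 of 38 members were higher and 1 lower, where 1.38% of 16431 genes were higher and 0.937% lower. An unadjusted p below 0.05 was held by 3 of 38 members and by 2178 of the 16431 genes. Fold changes were below 0 for 29 of 38 members (76.3%), against 49.3% of all genes, and their median log2 fold change was -0.07, against 0.00 over all genes. Over all 26 libraries 17 of 38 members were below 0, against 44% of all genes, so this lean was not seen there. That fit had no term for Cd79a, and its SEs for members reached 0.44 (Tcof1). It therefore cannot decide whether so small a lean holds.

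Riok2 had 29.0, 22.1, 18.96, 24.0 and 25.4 CPM in females 1, 3, 4, 7 and 8 under jet lag, with a mean of 23.9 ± 3.73 CPM (SD, n = 5). The 6 females under 12:12 lighting had a lowest value of 27.05, a median of 28.7 and a highest value of 35.4 CPM, with a mean of 29.6 ± 3.08 CPM (SD, n = 6). In males it had 21.2, 25.0 and 14.03 CPM under jet lag, with a mean of 20.1 ± 5.59 CPM (SD, n = 3), against 31.1, 33.45, 35.5 and 31.2 CPM under 12:12 lighting, with a mean of 32.8 ± 2.10 CPM (SD, n = 4). The lightings did not overlap in males and overlapped in females through jet lag female 1. The log2 fold change was -0.50 (SE 0.10, edgeR adjusted p = 0.00972). With any 1 of the 18 libraries left out it still passed, with log2 fold changes of -0.55 to -0.43. It did not pass in smaller sets of these libraries or with the replicate number as a block, although the fold change stayed below 0. Only numbers present under both lightings, females 1, 3, 4 and 8 and male 6, inform the fold change with the block. The log2 fold change was -0.36 in females alone (edgeR adjusted p = 0.242), -0.72 in males alone (adjusted p = 0.18), -0.55 in libraries below 2 CPM of Cd79a (adjusted p = 0.255) and -0.37 with the block (adjusted p = 0.246).

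The 8 Cd79a-high libraries, which that fit did not use, were set beside it after their values had been seen. Riok2 had 23.1, 26.9, 24.8 and 27.6 CPM in the 4 jet lag libraries, against 33.9, 34.0, 31.6 and 35.9 CPM in the 4 under 12:12 lighting. These did not overlap, and the mean log2 difference was -0.40. A two-sided exact permutation test, which left out sex, gave p = 0.0286, the smallest p that 4 against 4 libraries allow. Because the values had been seen to lie apart, this p was fixed beforehand and is not an independent test. Over all 26 libraries the log2 fold change was -0.45 (edgeR adjusted p = 0.00255). Riok2 lies at chr17:17374309-17394899 on the plus strand of GRCm38, and its exons overlap those of the antisense gene Gm26873 in the GENCODE annotation. The sources used here do not say whether counting used strand, so reads in the exon stretches that both genes share cannot be told apart. The length of these stretches was not measured, and Gm26873 is not among the gene names counted. Shared stretches of this kind occur in 18 of the 38 members in all, Rrp1b, Mybbp1a, Pes1 and Nop56 among them, each of which overlaps a gene on the opposite strand.

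**Figure D4:**
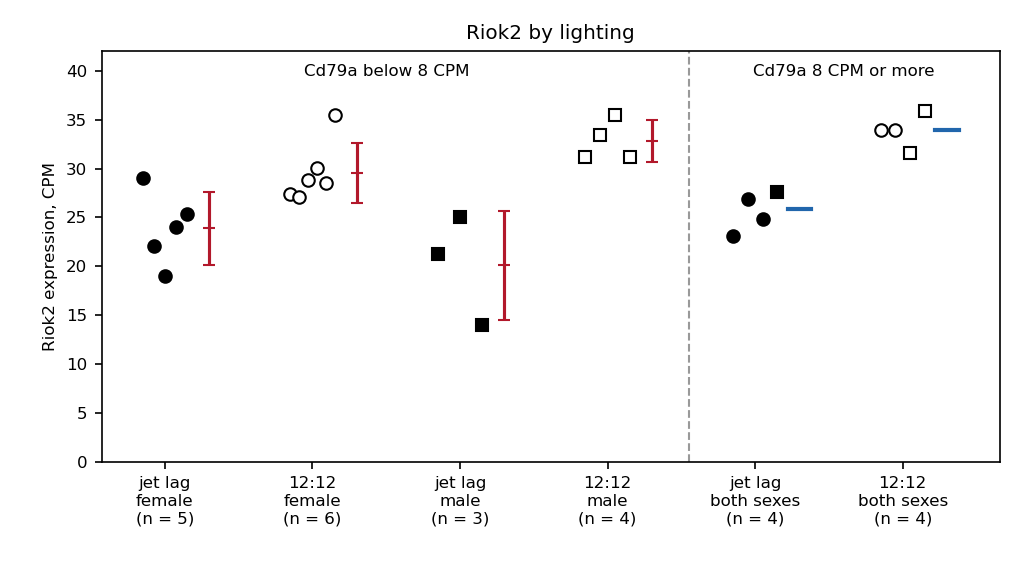
Riok2 (CPM) in each library by lighting, jet lag left of 12:12, for libraries below 8 CPM of Cd79a by sex and for Cd79a-high libraries with both sexes together; circles are females, squares males, red bars the mean with SD and blue lines the median. Jet lag libraries lie between 14.03 and 29.0 CPM, and 12:12 libraries between 27.05 and 35.9 CPM.

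The other members lay between -0.29 and 0.15 on the log2 scale under jet lag, with SEs of 0.068 to 0.19, and the lowest edgeR adjusted p among them was 0.283, that of Rrp9. Rrp9, a U3 snoRNP protein of the small subunit processome, had a mean of 8.88 ± 1.21 CPM under jet lag (SD, n = 8) and 10.2 ± 1.73 CPM under 12:12 lighting (SD, n = 10), a log2 fold change of -0.24 (SE 0.10). Rrs1, which helps to place the 5S ribonucleoprotein in the 60S precursor, had 8.74 ± 2.29 CPM under jet lag (n = 8) and 10.7 ± 3.77 CPM under 12:12 lighting (n = 10), and Nop2 had 19.8 ± 3.78 CPM under jet lag and 23.8 ± 6.61 CPM under 12:12 lighting. In each of these 3 genes the larger of the SDs exceeded the difference between the means. These SDs describe the spread of single libraries over both sexes and not the precision of the difference. Ncl had 195 ± 16.8 CPM under jet lag and 209 ± 27.9 CPM under 12:12 lighting (log2 fold change -0.14, SE 0.08), and Tcof1 10.4 ± 1.41 CPM under jet lag and 9.75 ± 1.58 CPM under 12:12 lighting (log2 fold change 0.04, SE 0.08). Riok1, the kinase closest to Riok2 in role, had a log2 fold change of 0.10 (SE 0.14, edgeR adjusted p = 0.854).

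**Figure D5:**
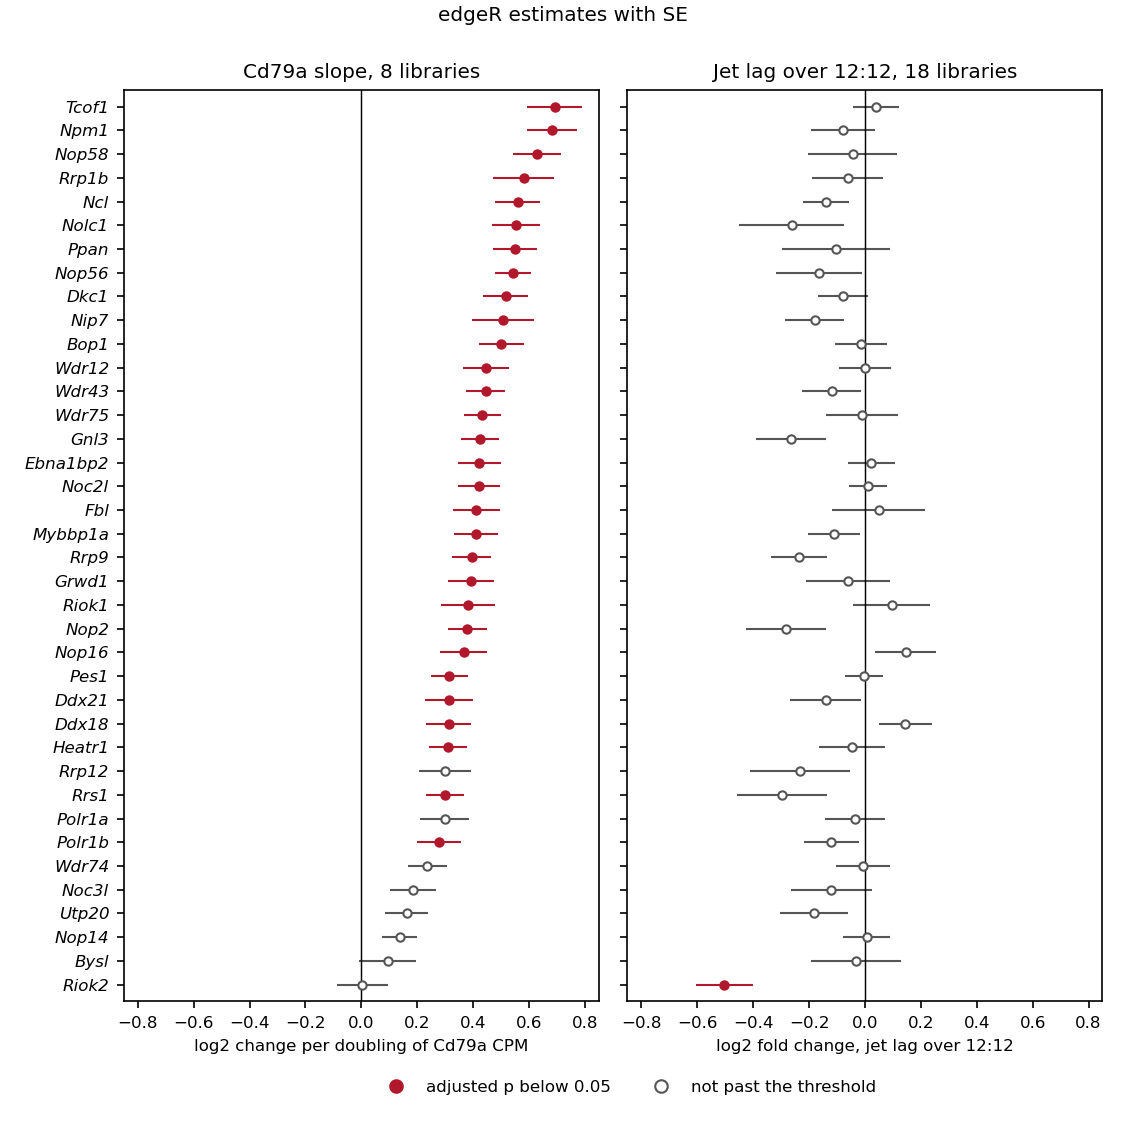
edgeR estimates with their SE for each of the 38 members, with the log2 change per doubling of Cd79a in the 8 Cd79a-high libraries on the left and the log2 fold change of jet lag over 12:12 lighting in the other 18 on the right; filled red points have an adjusted p below 0.05. On the left 30 points are red and Riok2 is at the bottom near 0, and on the right Riok2 alone is red, at -0.50.

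Beyond the members, 0 of 121 other pathway genes passed under jet lag (6 at an unadjusted p below 0.05), with a median log2 fold change of 0.00, and 0 of 43 ribosomal protein genes (0 unadjusted), with a median of 0.03. The smallest p among the polymerase I genes was that of the shared subunit gene Polr2l, with a log2 fold change of -0.55 (SE 0.18, edgeR adjusted p = 0.126). Of the marker lists, 1 of 12 tested B-lineage genes and 1 of 15 proliferation genes were lower and 0 higher, and no gene of the T and NK cell, macrophage, neutrophil, erythroid, cholangiocyte and hepatocyte lists passed. At an unadjusted p below 0.05 these 6 lists held 3 genes in all, the 3 being of the cholangiocyte list.

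Females and males were compared in their response to jet lag in the same 18 libraries. In edgeR 0 of 38 members differed, where 0% of genes differed in either direction, and 1 member, Fbl, had an unadjusted p below 0.05. Its interaction, the female minus the male log2 fold change, was -0.72 (SE 0.31, adjusted p = 0.544). Fbl averaged 3.88 ± 0.77 CPM in jet lag females (n = 5) and 4.37 ± 0.89 CPM in 12:12 females (n = 6), against 4.55 ± 1.44 CPM in jet lag males (n = 3) and 3.21 ± 0.75 CPM in 12:12 males (n = 4, SDs). For Riok2 the interaction was 0.35 (SE 0.20, edgeR adjusted p = 0.618), so a difference between the sexes was not detectable with these libraries. DESeq2, in which the difference was taken as male minus female, called 4 genes higher and 5 lower over the whole table, and 0 members.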

How the data were processed

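Members and gene lists were chosen with earlier results of these data known, so no list stands as independent evidence. RNA was column-purified and made into stranded mRNA libraries on the DNBSEQ platform, per the labels' protocols. The authors deposited a raw table of expected counts per gene name without normalization, in which 45.82% of cells held 0.015. This fill value was set to 0, 1.44% of cells that were not whole (tolerance 1e-06) were rounded, and 36930 lines were summed to 36883 names. The submitters' processing notes name STAR, DESeq2 and mm10; for the counting tool, the annotation and the use of strand nothing is given in the sources used here. Of 123 other pathway entries 121 were found, some under older symbols.

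CPM is the count over the library total. Limits cover counting error only. Genes passed filterByExpr of edgeR 4.0.16 (count minimum 10), were scaled by TMM and tested with robust quasi-likelihood F tests, with Benjamini-Hochberg adjustment over all tested genes and a threshold of 0.05. Jet lag among libraries below 8 CPM of Cd79a had sex as covariate. Slopes used log2(CPM + 0.1) of Cd79a or Myc, with sex and lighting as covariates below 8 CPM and none above. The SE is the log2 fold change over the square root of F. Medians, ranges and overlap describe the Cd79a-high libraries without a test. Libraries of 1 group were checked for copies by chi-square, and none were found. Any member could be named; of other lists, those with the 2 smallest p under jet lag and the 2 largest ratios. The models were run on simulated counts with the same dispersion for every gene and changes larger than those of the members. Changes of the members' size were not covered. Alternatives were other scalings, filters, thresholds and covariates, DESeq2 1.42.0, single sexes, the replicate number as a block and leaving out each library. Exon lengths, overlaps and gene positions came from GENCODE on GRCm38, the assembly of mm10.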

Additional observations from a re-analysis of the deposited data

Results flagged for a closer look

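Of 122 groups of 4 to 10 libraries examined by Dixon's test, 9 held a library far from the others of its group, a number to be read against the 1 in 20 that chance gives. Among libraries below 8 CPM of Cd79a, 12:12 female 8 was the highest of its group for 4 members. It had 45.7 CPM of Polr1a, against 28.6 to 32.8 CPM in the other 5 females, 10.6 CPM of Riok1, against 5.24 to 6.20 CPM, 35.4 CPM of Riok2, against 27.05 to 30.04 CPM, and 10.1 CPM of Noc3l, against 6.09 to 7.04 CPM. Its summed member level of 1187 CPM was also the highest of the 18 libraries. Female 5 of the same group was lowest for Fbl, with 2.73 CPM, against 4.46 to 5.46 CPM. Heatr1 had 24.8 CPM in 12:12 male 6, against 34.5 to 35.7 CPM in the other 3 males. Nop16 had 16.3 CPM in jet lag female 1, against 18.3 to 18.8 CPM in the other 4 females.

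Over all libraries, jet lag male 8 stood apart from the other 3 jet lag males. Its summed member level was 3442 CPM, against 852 to 1007 CPM, and its Myc was 293 CPM, against 2.68 to 5.50 CPM.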

How the results depend on the processing

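Among libraries below 8 CPM of Cd79a, the call of Riok2 as the 1 member lower under jet lag held with DESeq2 size factors, the DESeq2 test, no filter, a threshold of 4 CPM, all 26 libraries with or without Cd79a as covariate, and each library left out. The count was 0 with the replicate block (Riok2 -0.37, edgeR adjusted p = 0.246), with a threshold of 2 CPM and in each sex alone. The last 3 use fewer libraries. With the block, the lighting effect rests on the numbers present under both lightings alone, females 1, 3, 4 and 8 and male 6. Deviations from group means of same-numbered libraries had correlations of -0.121 to 0.0276 among the 18 and of -0.384 to 0.602 among all 26. These few pairs cannot settle whether the numbers pair the mice. Genes called higher and lower over the table were 227 and 154, and 389 and 313 in DESeq2, 35 and 12 with the replicate block, 75 and 57 over all 26 libraries, and 101 and 63 without jet lag female 3. Among members, 1 (Nop16, -0.71 per doubling of Cd79a) was lower with Cd79a below 8 CPM once sex and lighting were dropped. Above 8 CPM, counts were 1 on Cd79a and 0 on Myc without the 2 libraries farthest from the median, 15 to 33 and 1 to 24 with each library left out, and 29 and 19 with lighting as covariate. The shares of all genes beside these slope counts are not given here. Members without overlap numbered 2 with TMM (Tcof1 and Pes1) and 18 at a threshold of 16 CPM. They numbered 8 in females, 28 in males and 4 to 20 with a Cd79a-high library left out. The share of all genes without overlap was not counted at these settings. Members above 2-fold numbered 9 with TMM and 12 to 19 with a library left out. The median log2 ratio over the members ran from 0.89 to 0.99 with a library left out. No member that passed a test changed direction under these settings, but 12 of 38, all of them not called, had jet lag fold changes of opposite sign in the 18 and in all 26 libraries. With 8 Cd79a-high libraries the slopes rest on few values, and the causes of these shifts were not tested.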
